A study of Mus musculus with 16 samples.

Results

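Binding of reprogramming factors was described at 6 mouse POU genes: Pou3f1, Pou3f2, Pou3f3, Pou2f1, Pou2f3 and Pou6f1. All peak summits within the gene bodies and 50 kb to either side were taken (mm10, GENCODE M21), which gave 121 of the 227116 summits of the series. They lay in 865.468 kb, and summits within 100 bp of the next were merged into 79 sites. Of these summits, 15 fell in the exon of Pou3f1, whose coding sequence was delivered to the cells in the Oct6 cocktails, and these were kept apart from the other 106.

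POU factors are transcription factors that hold DNA with 2 linked domains, a POU-specific domain and a POU homeodomain. They read the octamer as monomers, pair with Sox factors on SoxOct elements, and form homodimers on the palindromic MORE element. Pou5f1 encodes Oct4, a core factor of pluripotency. Pou3f1 encodes Oct6, and Pou3f2 and Pou3f3 encode the related factors Brn2 and Brn1, which are known for roles in neural cells. Pou2f1 encodes Oct1, which most cell types express, Pou2f3 is known for its role in tuft cells and keratinocytes, and Pou6f1 encodes a factor of the POU6 class.

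Mouse embryonic fibroblasts of the OG2 strain (OG2-MEFs), in which the Oct4 promoter drives GFP, were transduced with pMX retroviruses for Sox2 and Klf4 (SK) and 1 POU factor, and were cultured in the reprogramming medium iCD1, with days counted from the switch to this medium. Oct4 was profiled in Oct4-SK at days 1, 5 and 7. Oct4defSox2, an Oct4 with I21Y and D29R built to disrupt pairing with Sox2 on the canonical SoxOct element, was profiled in Oct4defSox2-SK at days 1 and 5. Oct4 S151M and Oct6 M151S, in which Oct4 and Oct6 carry the residue of the other, were profiled at day 1 in Oct4 S151M-SK and Oct6 M151S-SK. The characteristics of the Oct6 M151S sample gave day 2 where its title gave day 1. At days 1 and 5, Sox2 was profiled in the cocktails of Oct4, Oct4defSox2 and Oct6. All cells therefore carried the OG2 reporter and received Sox2 and Klf4. The coding sequence of Oct6 was given only in Oct6-SK and in Oct6 M151S-SK, there with the mutation. All Oct4 forms were profiled with the Oct4 antibody (6 libraries), Sox2 with a Sox2 antibody (6) and Oct6 M151S with the Oct6 antibody (1). The paper's methods name more than 1 Sox2 antibody and do not say which library used which. Each of the 13 ChIP libraries was the only one of its group, so no comparison could be tested against replicate error. The intervals below are exact 95% binomial intervals that cover counting error only. List sizes ran from 1038 summits (Oct4defSox2 at day 5) to 101170 (Oct4 S151M). The strength of a summit is given as its rank by score, the −log10 p-value of the peak caller, within its own library.

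The Pou3f1 gene is a single exon of 3849 bp at chr4:124656807-124660655 on the + strand. Its coding sequence, at chr4:124657707-124659053, is 1347 bp long and makes up 35.0% of the exon. All 15 exon summits fell in the coding sequence, and 0 fell in the 2502 bp of UTR. The first lay 238 bp after the coding start and the last 251 bp before the coding end. They formed 3 sites, with summits of 8, 5 and 2 libraries.

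**Figure D1:**
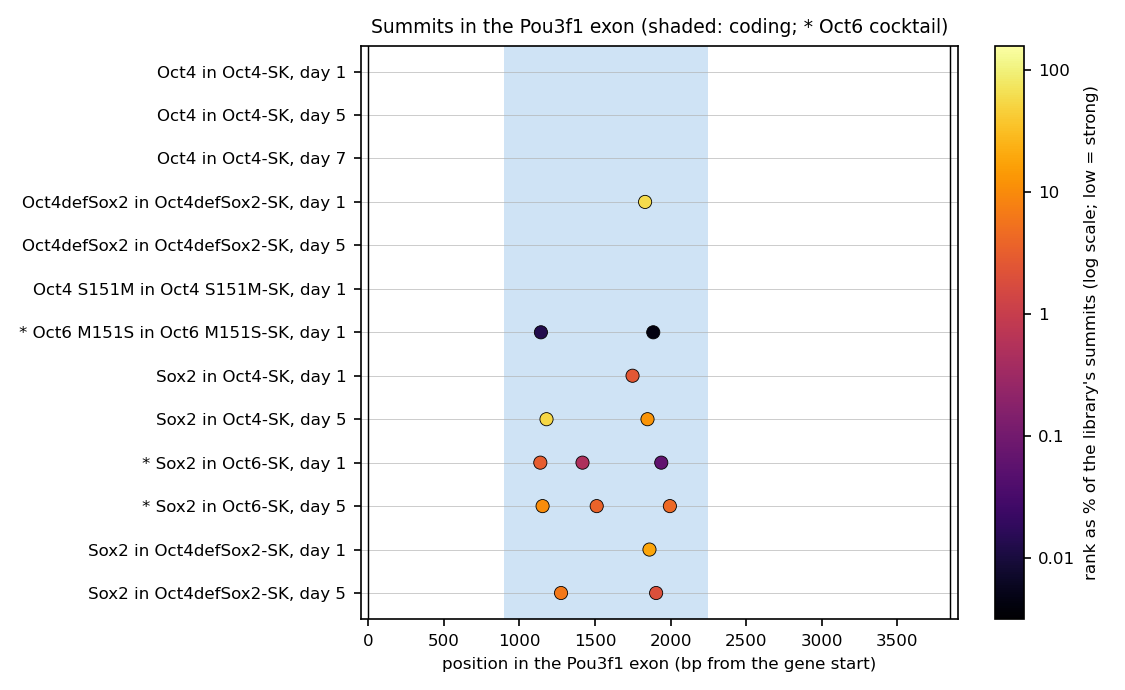
Positions of the 15 summits in the Pou3f1 exon, in bp from the gene start, by library. Shading marks the coding sequence, asterisks mark libraries of Oct6 cocktails, and colour gives the rank of the summit as a percentage of its library on a log scale. All points lie in the shaded part, and 5 libraries have none.

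The strongest signal was seen in Oct6 M151S, in which the summit at chr4:124658692 ranked 1 of 22804 with a score of 344.4. The second exon summit of this library, at chr4:124657949, ranked 3 with a score of 111.7. The summit between them in rank scored 152.6 and the summit at rank 4 scored 22.7, so the Pou3f1 summits belonged to a group of 3 that stood apart from the rest of the list. Both lay in 1 peak at chr4:124657728-124659076, which started 21 bp after the coding start and ended 23 bp past the coding end. At 1349 bp it was 1 of the 3 widest of 22306 peaks, whose median width was 286 bp. Fold enrichment over the local background was 39.4 at the stronger summit, against a median of 2.42 over all summits of the library, and no other summit reached it.

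The 101 bases around this summit are shown because they carry the strongest signal of the library (mm10, chr4:124658642-124658742, + strand, in lower case because none of the POU or Sox motifs described below was found).
Pou3f1 coding sequence at the Oct6 M151S summit: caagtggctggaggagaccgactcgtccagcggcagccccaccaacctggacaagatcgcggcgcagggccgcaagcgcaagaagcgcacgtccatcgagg
The whole coding sequence had a GC content of 72.9% and held 0 matches to the octamer, MORE, MORE+1, SoxOct and Sox motifs. Of its 1318 stretches of 30 bases, 9 were also found in the exons of Pou3f2 and 0 in those of the other 4 genes.

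The other libraries of Oct6 cocktails were Sox2 libraries. Sox2 in Oct6-SK at day 1 had 3 exon summits in 1 peak, which ranked 2, 16 and 97 of 3242. Only 2 of its 3160 peaks held 3 or more summits. At day 5 the same cocktail again had 3 summits in 1 peak, and this was the only such peak of 2629. These summits ranked 96, 114 and 282 of 2673. All 3 libraries of Oct6 cocktails therefore had an exon summit, where 0.497% of 21938 protein-coding genes had one for Sox2 in Oct6-SK at day 1, 0.574% at day 5 and 7.95% for Oct6 M151S.

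Exon summits were not limited to cocktails that held Oct6, since 5 of the 10 other libraries had one. Sox2 in Oct4-SK had an exon summit at rank 394 of 15222 at day 1, and at ranks 726 and 3134 of 5832 at day 5. Sox2 in Oct4defSox2-SK had one at rank 1045 of 5794 at day 1, and had them at ranks 423 and 1340 of 21563 at day 5. The background shares of genes with an exon summit in these 4 libraries were 2.9%, 1.53%, 0.811% and 5.61%. Oct4defSox2 at day 1 had a weak summit at rank 18477 of 31070, against a background of 4.51%. No exon summit was called for Oct4 at day 1 (background 1.02%), day 5 (1.09%) or day 7 (0.506%), for Oct4defSox2 at day 5 (0.169%) or for Oct4 S151M (10.9%), although the last list was the longest of the series.

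Among the Sox2 libraries the best exon summit stood in the top 0.0617% of Sox2 in Oct6-SK at day 1 and in the top 3.59% at day 5. In the cocktails without Oct6 it stood in the top 2.59% and 12.4% for Oct4-SK at days 1 and 5, and in the top 18.0% and 1.96% for Oct4defSox2-SK. By rank, Oct6-SK came first of the 3 cocktails at both days. As a percentage of the list it came first at day 1 and after Oct4defSox2-SK at day 5, and the 2 lists of day 5 differ widely in length (2673 and 21563 summits), so no order is read from day 5. Among the 1000 strongest summits of each library, all 3 libraries of Oct6 cocktails and 3 of the 10 others had an exon summit. A read from a delivered coding sequence aligns to the same place as one from the gene, so the delivered copy and the chromosomal gene cannot be told apart in Oct6 cocktails. The source of the exon summits in cocktails without Oct6 was not tested, nor was DNA carried over between libraries, so an exon summit is given here as a signal at these coordinates and not as binding at the gene.

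The other delivered genes were counted the same way, and the source of their exon summits was not tested either. Pou5f1 (Oct4) had 10 exon summits in 8 libraries, Sox2 had 13 in 9 libraries and Klf4, a zinc finger factor of the cocktail, had 6 in 4 libraries. All of them lay in coding exons and 0 in UTRs. Pou5f1 was marked in all 6 Sox2 libraries. In Sox2 in Oct6-SK at day 1, where Oct4 was not delivered, a Pou5f1 exon summit ranked 1 of 3242, with the Pou3f1 summit next to it at rank 2. In each of the 8 libraries a Pou5f1 summit lay from 275 to 304 bp after the gene start, whereas the 15 summits of Pou3f1 ran from 1138 to 1995 bp after its start. The best Sox2 exon summit of a library stood in the top 1.94% or better in all 6 Sox2 libraries, and at rank 30 in Oct6 M151S. Klf4 had an exon summit in 1 of the 6 Sox2 libraries, Oct4defSox2-SK at day 5. None of the 4 genes had an exon summit for Oct4 at days 5 and 7, Oct4defSox2 at day 5 or Oct4 S151M.

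**Figure D2:**
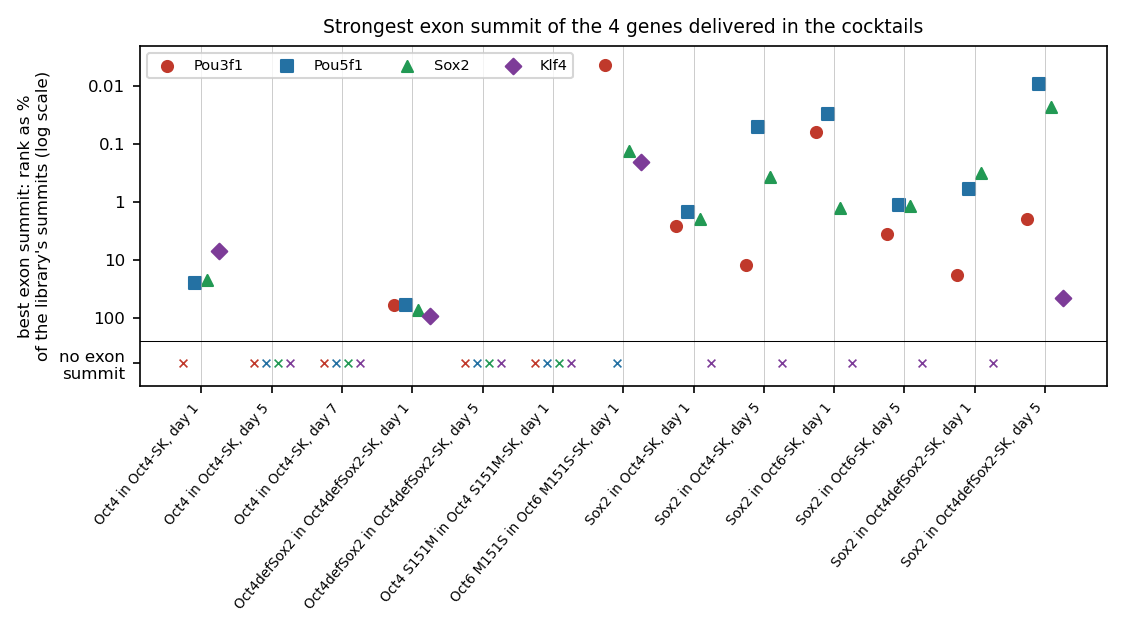
Rank of the strongest exon summit of Pou3f1, Pou5f1, Sox2 and Klf4 in each library, as a percentage of the library's summits on a log axis with the strongest at the top. Crosses mark genes with no exon summit. In Oct6 M151S the Pou3f1 summit is at rank 1, and 4 libraries have crosses for all 4 genes.

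The presence of exon summits over the 13 libraries was then compared between Pou3f1 and all other protein-coding genes. No other gene had the pattern of Pou3f1 in all 13 libraries, and 4 shared it in 12. These were Sox2, Rbbp4, which encodes a histone-binding chaperone, Ptch1, the Hedgehog receptor, and Sox17, a Sox factor of endoderm. Csrp3, a muscle LIM protein gene, followed among those that shared it in 11, of which Pou5f1 was another. A gene with no exon summit at all shares it in 5, the libraries without a Pou3f1 summit. The libraries share antibodies and cocktails, so this likeness is a description. Exon summits in all 6 Sox2 libraries were found for 10 genes, including Pou3f1, Sox2 and Pou5f1, and 7 of these 10 were not delivered in any cocktail.

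Outside its exon, Pou3f1 had 10 summits at 10 sites, each in 1 library. Oct4 S151M gave 7 of them. The strongest, 7588 bp after the gene start at chr4:124664395, ranked 4466 of 101170. Oct6 M151S, Sox2 in Oct4-SK at day 5 and Sox2 in Oct4defSox2-SK at day 5 gave 1 each. The nearest site upstream of the gene, at -6156 bp, was among the weakest of Oct4 S151M, at rank 98890. No summit of any library lay within 1 kb of the Pou3f1 start.

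Counts at the 6 genes were highest in the longest lists. Oct4 S151M had 48 summits, Oct4defSox2 at day 1 had 17, Sox2 in Oct4defSox2-SK at day 5 had 14 and Oct6 M151S had 12, while Oct4 at day 7 had none, which allows at most 0.101% of its 3638 summits. The Oct6 M151S list was called at a looser threshold, and with a score of at least 4, near the lowest of the other lists, it had 4 summits at the 6 genes. As a share of each full list the counts were 0.0474% (0.0350 to 0.0629) for Oct4 S151M, 0.0547% (0.0319 to 0.0876) for Oct4defSox2 at day 1, 0.0649% (0.0355 to 0.109) for Sox2 in Oct4defSox2-SK at day 5 and 0.0526% (0.0272 to 0.0919) for Oct6 M151S. These intervals overlap. The highest share, 0.150% (0.0408 to 0.383) in Sox2 in Oct6-SK at day 5, came from 4 summits, 3 of them in the Pou3f1 exon.

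**Figure D3:**
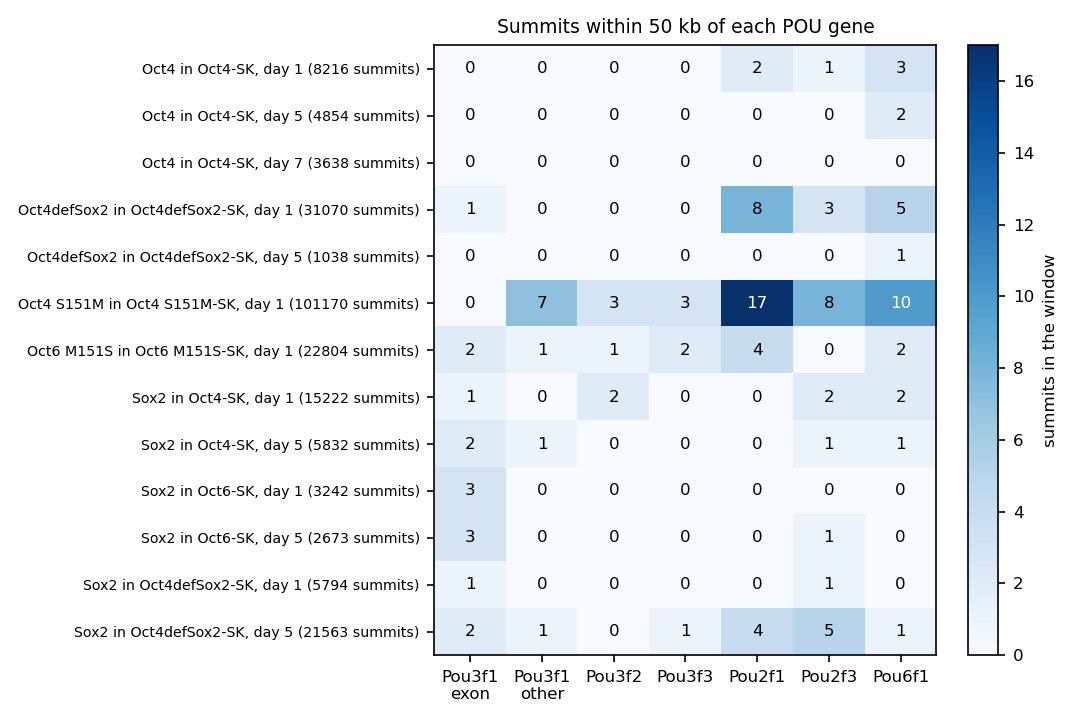
Number of summits of each library (rows, with the list size) in the window of each gene (columns), with the Pou3f1 exon apart. Oct4 S151M has the highest count in every column except the Pou3f1 exon, where it has 0.

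The share of the 6 genes with a summit was read against all protein-coding genes with the same flanks. For Oct4 it was 3 of 6 at day 1 (background 29.8%), 1 of 6 at day 5 (25.4%) and 0 of 6 at day 7 (19%). Oct4defSox2 had 4 of 6 at day 1 (63%) and 1 of 6 at day 5 (6.62%). Oct4 S151M had 6 of 6 (90%) and Oct6 M151S 5 of 6 (69%). Sox2 in Oct4-SK had 4 of 6 at day 1 (46.1%) and 3 of 6 at day 5 (30%). Sox2 in Oct6-SK had 1 of 6 (10.5%) and 2 of 6 (14.3%), and Sox2 in Oct4defSox2-SK had 2 of 6 (18.6%) and 5 of 6 (66.1%). A step of 1 gene is 16.7 points, and no count lay 2 genes or more from what the background share gives for 6 genes. Without the Pou3f1 exon the counts were 3 of 6 for Oct4defSox2 at day 1, 3 of 6 for Sox2 in Oct4-SK at day 1, 0 and 1 of 6 for Sox2 in Oct6-SK and 1 of 6 for Sox2 in Oct4defSox2-SK at day 1, and were as before in the other libraries.

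**Figure D4:**
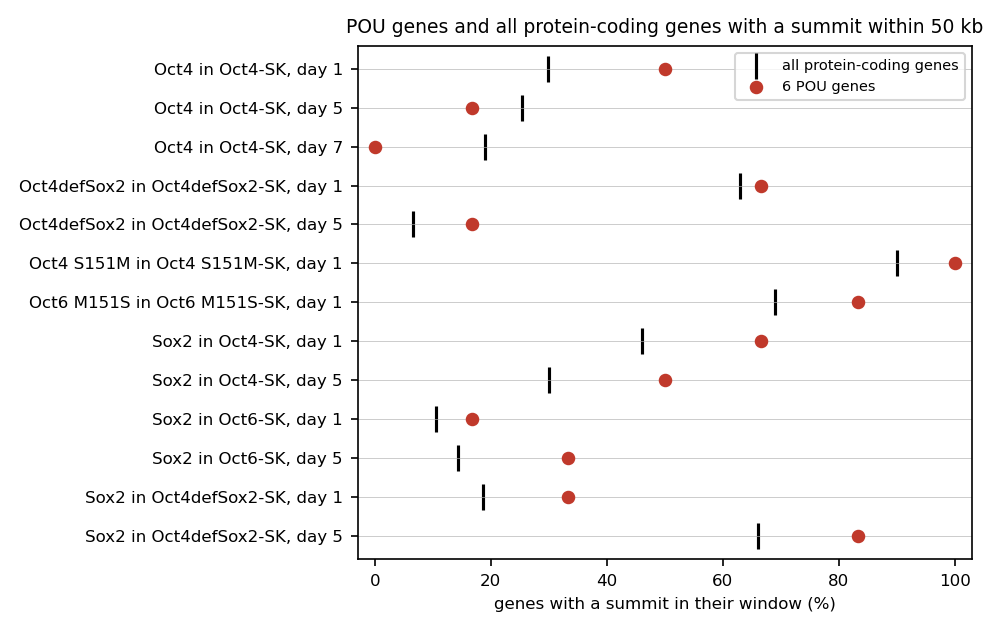
Share of genes with a summit in the gene body or within 50 kb, by library. Points give the 6 POU genes in steps of 1 gene and bars give all 21938 protein-coding genes. The points follow the bars from library to library.

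Apart from the Pou3f1 exon there were 76 sites. Of these, 62 had a summit in 1 library only, 14 in 2 or more and 9 in 3 or more. All 14 recurrent sites had a summit of Oct4 S151M, and 12 had one of Oct4defSox2 at day 1, which are the 2 longest lists. Oct4 S151M alone accounted for 34 sites and Oct6 M151S alone for 9 of its 10. Sites of both the Oct4 antibody and a Sox2 antibody numbered 4. All 12 sites at Pou3f2 and Pou3f3 had a summit in 1 library. The same counts were not made over all sites of the series, so none is read as a trait of the POU genes. Ordered by rank as a percentage of the list, the first 2 for Pou3f2 were an Oct6 M151S summit at chr4:22497885 (rank 2272 of 22804) and an Oct4 S151M summit at chr4:22455776 (rank 10734 of 101170). For Pou3f3, by the same order, they were an Oct4 S151M summit at chr1:42682699 (rank 36755 of 101170), in an intron of the lincRNA Pantr1, and a Sox2 summit of Oct4defSox2-SK at day 5 at chr1:42692989 (rank 12642 of 21563), in an exon of the same lincRNA.

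**Figure D5:**
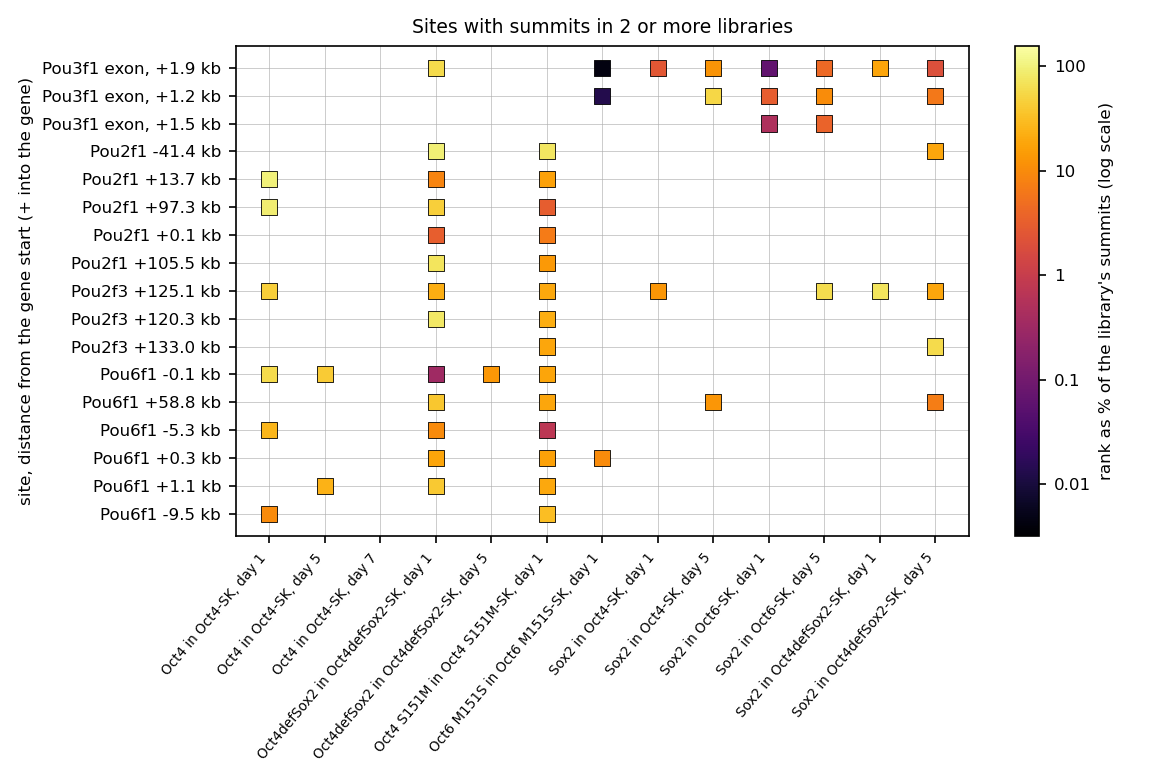
Sites with summits in 2 or more libraries (rows, by gene and distance from its start in kb) across the 13 libraries (columns). Colour gives the rank as a percentage of the library's summits on a log scale. Of the 3 Pou3f1 exon sites 1 has summits in all 6 Sox2 libraries, and the 14 other sites all have one of Oct4 S151M.

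Pou6f1 had the most sites shared between Oct4 forms. Its promoter site at chr15:100600069-100600134, 102 bp upstream of the start, had summits in 5 of the 6 libraries made with the Oct4 antibody. Oct4defSox2 bound it at day 1 at rank 99 of 31070 and at day 5 at rank 141 of 1038. The ranks were 18180 of 101170 for Oct4 S151M, 4918 of 8216 for Oct4 at day 1 and 2043 of 4854 for Oct4 at day 5. Oct4 at day 7 had no summit there, and nor did any Sox2 library or Oct6 M151S. It was the only site of the 6 genes in the Oct4defSox2 list of day 5. A second Pou6f1 site, at chr15:100605294-100605307 and 5322 bp upstream, ranked 726 of 101170 in Oct4 S151M, 3057 in Oct4defSox2 at day 1 and 2115 in Oct4 at day 1. Its summits in 3 libraries lay within 13 bp of each other. In an intron near the start, the site at chr15:100599596-100599666 was the only one that Oct6 M151S shared with other libraries outside the Pou3f1 exon, at rank 2272 of 22804 beside ranks 5677 in Oct4defSox2 at day 1 and 16963 in Oct4 S151M. The site at chr15:100598866-100598930, also in an intron, had summits of Oct4 at day 5, Oct4defSox2 at day 1 and Oct4 S151M. Another site in the window, at chr15:100541038-100541231 in an intron of Tfcp2, joined both antibodies, with ranks of 1506 for Sox2 in Oct4defSox2-SK at day 5, 734 for Sox2 in Oct4-SK at day 5, 11754 for Oct4defSox2 at day 1 and 18732 for Oct4 S151M.

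Pou2f1 had 35 summits, of which 26 lay in its gene body of 137525 bp. The only Sox2 summits among them were 4 of Oct4defSox2-SK at day 5, the longest Sox2 list (21563 summits). The Pou2f1 intronic sites at chr1:165905377-165905450 and chr1:165988991-165989033 each had summits of Oct4 at day 1, Oct4defSox2 at day 1 and Oct4 S151M. At the former the ranks were 7431 of 8216, 14235 of 31070 and 3053 of 101170. At the latter they were 7954, 2664 and 16901 in the same order. The 3 lists differ widely in length, so no order between the factors is read from these ranks. A site at its start, chr1:166002526-166002599, ranked 997 in Oct4defSox2 at day 1 and 6838 in Oct4 S151M and spanned a coding exon and the intron after it. A site 41394 bp upstream, chr1:166044012-166044085, ranked 4089 of 21563 for Sox2 in Oct4defSox2-SK at day 5, 29422 of 31070 for Oct4defSox2 at day 1 and 76120 of 101170 for Oct4 S151M. The remaining sites within 1 kb of a Pou2f1 start were an Oct4 S151M summit at chr1:166002199, another at chr1:165935296 by an internal start and a Sox2 summit of Oct4defSox2-SK at day 5 at chr1:166003241.

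In the Pou2f3 window the most shared site, at chr9:43085182-43085333, had summits in 7 libraries, more than any other site outside the Pou3f1 exon. It lay outside Pou2f3, in an intron of Arhgef12. The ranks were 3813 of 8216 for Oct4 at day 1, 6956 of 31070 for Oct4defSox2 at day 1 and 19432 of 101170 for Oct4 S151M. Among Sox2 libraries they were 1948 of 15222 for Oct4-SK at day 1, 1652 of 2673 for Oct6-SK at day 5, and 4241 of 5794 and 4089 of 21563 for Oct4defSox2-SK at days 1 and 5. A neighbouring intronic site, chr9:43077355-43077412, had summits of Oct4 S151M and Sox2 in Oct4defSox2-SK at day 5, and a site at chr9:43090026-43090061 had summits of Oct4 S151M and Oct4defSox2 at day 1. The only summit within 1 kb of a Pou2f3 start was that of Oct4defSox2 at day 1 at chr9:43210167, rank 13759. The remaining promoter sites of Pou6f1 were an Oct4 S151M summit at chr15:100599282 and an Oct6 M151S summit at chr15:100585856 by an internal start.

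Sequences of 121 bases around the centres of the 9 sites with summits in 3 or more libraries are given on the + strand of mm10, to show what the Oct4 forms bound in common. Capitals mark octamer matches with up to 1 mismatch and MORE matches with up to 2, and the last 3 sequences hold neither.
Pou6f1 promoter site, chr15:100600026-100600146: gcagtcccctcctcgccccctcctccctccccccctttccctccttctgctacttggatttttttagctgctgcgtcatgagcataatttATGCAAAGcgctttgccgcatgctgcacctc
Pou6f1 upstream site, chr15:100605246-100605366: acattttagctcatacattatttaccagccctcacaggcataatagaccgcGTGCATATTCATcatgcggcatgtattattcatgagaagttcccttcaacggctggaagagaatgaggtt
Pou6f1 intron, chr15:100599595-100599715: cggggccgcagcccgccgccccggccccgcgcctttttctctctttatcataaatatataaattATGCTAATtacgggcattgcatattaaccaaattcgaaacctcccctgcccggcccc
Pou2f1 intron, chr1:165905364-165905484: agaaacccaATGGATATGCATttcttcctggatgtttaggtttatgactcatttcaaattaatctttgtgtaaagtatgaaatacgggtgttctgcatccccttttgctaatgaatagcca
Pou2f1 intron, chr1:165988953-165989073: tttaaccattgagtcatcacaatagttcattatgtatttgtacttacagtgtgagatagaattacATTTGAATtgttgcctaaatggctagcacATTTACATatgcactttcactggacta
Arhgef12 intron in the Pou2f3 window, chr9:43085177-43085297: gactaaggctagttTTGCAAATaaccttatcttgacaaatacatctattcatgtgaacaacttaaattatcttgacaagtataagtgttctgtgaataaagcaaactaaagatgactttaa
Pou2f1 upstream site, chr1:166044012-166044132: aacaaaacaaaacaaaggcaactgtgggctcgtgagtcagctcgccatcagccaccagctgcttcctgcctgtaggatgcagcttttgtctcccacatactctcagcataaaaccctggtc
Tfcp2 intron in the Pou6f1 window, chr15:100541110-100541230: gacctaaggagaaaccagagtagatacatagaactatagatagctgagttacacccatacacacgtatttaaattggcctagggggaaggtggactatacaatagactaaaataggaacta
Pou6f1 intron, chr15:100598817-100598937: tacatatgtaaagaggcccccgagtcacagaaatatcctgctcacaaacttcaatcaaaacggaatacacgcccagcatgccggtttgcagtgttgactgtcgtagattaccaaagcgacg

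Motifs were searched on both strands within 100 bp of each summit: the octamer ATGCAAAT (exact), MORE as 2 copies of ATGCAT in a row and MORE+1 as the same with 1 base between (both with up to 1 mismatch), SoxOct as CATTGT, 1 base and the octamer (up to 2 mismatches) and Sox as CATTGTT (exact). The looser octamer and MORE of the capitals were added after these results had been seen, and a MORE match can overlap an octamer match, as at the Pou2f1 intron of rank 3053. Over all summits of the series an octamer was found at 5.72%, against 1.61% of windows 2 kb away, MORE or MORE+1 at 6.56% against 0.316%, SoxOct at 2.53% against 0.305% and Sox at 8.13% against 4.08%. The looser octamer was found at 46.1% against 24.1% and MORE with up to 2 mismatches at 16.95% against 2.31%, so single matches of the former are common anywhere.

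Around the centres of the 76 sites outside the Pou3f1 exon, 5 had MORE or MORE+1, 4 the octamer, 3 SoxOct and 2 Sox, and 64 had none of the 3 kinds of POU motif. The share with none was not computed over all summits, where each of the 3 kinds was found at 6.56% or less. Of the 14 recurrent sites 1 had MORE, the Pou2f1 intron of rank 3053 in Oct4 S151M. One more had SoxOct with 2 mismatches at its centre, at chr15:100609435-100609441 and 9454 bp upstream of Pou6f1. This site, singled out after its values were seen, ranked 816 of 8216 in Oct4 at day 1, the best of the 6 Oct4 summits of that day, and 31099 of 101170 in Oct4 S151M. It was the only one of the 6 without an Oct4defSox2 summit at day 1. None of the 14 had an exact octamer. The Pou6f1 site 5322 bp upstream had MORE with 2 mismatches, centred 3 bp from the site's centre. At the Pou6f1 promoter the octamer with 1 mismatch lay 34 bp from the centre.

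For Oct4 S151M, 5 of the 48 summits at the POU genes had MORE or MORE+1 (10.4%, 3.47 to 22.7), against 12.7% of all its summits and 0.321% of windows 2 kb away. The POU genes were thus not set apart from the rest of the list. For Oct4defSox2 at day 1 the share was 1 of 17 against 2.86% of its list. The 12 summits of Oct6 M151S held none of the POU motifs, where 0.263% of its list had MORE or MORE+1 and 2.10% the octamer, close to the 0.265% and 1.56% of windows 2 kb away.

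Sharing of sites between factors, days and cocktails was compared with the whole lists. All 6 summits of Oct4 at day 1 had an Oct4 S151M summit within 100 bp (54.1 to 100%), against 78.2% of its list. With equal numbers of the strongest summits in both lists it was 33.3% (4.33 to 77.7, n = 6), and the Oct4 S151M list held 101170 summits against 8216. The whole-list share was not computed for lists of equal size. Of the same 6 summits, 5 had one of Oct4defSox2 at day 1 (35.9 to 99.6%), against 57.4% of the list. In the other direction, 11 of 17 Oct4defSox2 summits of day 1 had one of Oct4 S151M (64.7%, 38.3 to 85.8), against 43.5% of its list. Only 1 of 12 Oct6 M151S summits did (8.33%, 0.211 to 38.5), against 7.10%. With the full lists the intervals include the whole-list shares in all of these pairs, so there no pair differed at the POU genes beyond counting error.

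The day 5 lists were shorter than those of day 1 (4854 against 8216 summits for Oct4, 1038 against 31070 for Oct4defSox2 and 5832 against 15222 for Sox2 in Oct4-SK), which limits how many day 1 sites can be found again. For Oct4, sites kept from day 1 to day 5 were 1 of 6 (16.7%, 0.421 to 64.1), against 24.5% of the list, and for Oct4defSox2 1 of 17 (5.88%, 0.149 to 28.7), against 2.35%. Both were the Pou6f1 promoter site. With equal numbers of the strongest summits it was 0 of 3 for Oct4 and 1 of 2 for Oct4defSox2, and whole-list shares were not computed for that setting. For Sox2 in Oct4-SK 1 of 7 was kept (14.3%, 0.361 to 57.9), against 7.23%. That summit was in the Pou3f1 exon, and 0 of 6 were kept without the exon. All 3 intervals include the share of the whole list. With a sharing distance of 250 bp it was 2 of 7 (28.6%), since Sox2 in Oct4-SK at day 5 had a summit at chr9:43085436 (rank 3651 of 5832), beside the Arhgef12 site. With a distance of 50 bp, 0 of 6 were kept for Oct4, 0 of 17 for Oct4defSox2 and 0 of 7 for Sox2 in Oct4-SK. Whole-list shares were not computed at distances of 50 or 250 bp. Between cocktails at day 5, 3 of 5 Sox2 summits of Oct4-SK had one in Oct4defSox2-SK (60%, 14.7 to 94.7), against 38.3%. Without the exon it was 1 of 3, the Tfcp2 intron site, and with a distance of 50 bp it was 0 of 5.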

How the data were processed

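Peak summits were deposited by the authors for 13 ChIP libraries. Reads had been aligned to mm10 with Bowtie2 2.2.5 and peaks called per library with MACS2, per the study's methods and processing notes. The deposited summit score is the −log10 p-value, and the deposited peak tables of Oct4 S151M and Oct6 M151S add a fold enrichment (ratio) and −log10 q-value. Scores depend on depth and were used as ranks within a library. The lowest score was 4.00 to 4.12 in 12 lists and 2.30 in Oct6 M151S, so that list was called at a looser threshold. The day 7 Oct4 library had shorter reads than the others. Read depths and the 3 inputs were not used here.

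The 6 genes, the delivered genes and the motifs were chosen with earlier results of these data known. Named sites were every Pou3f1 exon summit, the 2 sites per gene in most libraries (ties by rank) and sites within 1 kb of an annotated start, and up to 5 genes with the exon pattern closest to Pou3f1. Other genes of the family, apart from the delivered Pou5f1, are not reported here. Sites named outside the rules above, also where this is not said, were chosen after their values were seen. Sites with a summit within 100 bp were shared. Exact Clopper-Pearson 95% intervals were computed with scipy 1.17.1, and tables with Python 3.11.15, pandas 2.3.3 and numpy 2.4.6. With 1 library per group no test was made. Alternatives were flanks of 20 and 100 kb, a score of at least 10, 1 summit per peak, sharing distances of 50 and 250 bp, equal list sizes, other motif settings and other exon rules. Counting, sharing and motif functions were tested on simulated data.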

Additional observations from a re-analysis of the deposited data

Results flagged for a closer look

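Counts of Sox2 summits at the POU genes outside the Pou3f1 exon moved in opposite directions from day 1 to day 5 between cocktails. In Oct4-SK they fell by 3, from 6 to 3, while in Oct4defSox2-SK they rose by 11, from 1 to 12, and in Oct6-SK by 1, from 0 to 1. The difference was not tested, since each cocktail and day had 1 library. List sizes moved the same way in Oct4-SK (15222 to 5832) and Oct4defSox2-SK (5794 to 21563), and fell in Oct6-SK (3242 to 2673). As a share of the list, the summits rose in all 3 cocktails. They went from 0.0394% to 0.0514% in Oct4-SK, from 0.0173% to 0.0557% in Oct4defSox2-SK and from 0% to 0.0374% in Oct6-SK. The part of list size in the counts was not tested further.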

How the results depend on the processing

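Of 125 recomputed values, 97 stayed within 1.5 times the main count or within the interval of the main share, and 28 did not. No direction was tested. In the flagged Sox2 result the Oct4-SK count fell from 6 to 3 while its share of the list rose from 0.0394% to 0.0514%. With flanks of 20 kb the counts became 3 for Sox2 in Oct4-SK at day 5, and 1 and 9 for Sox2 in Oct4defSox2-SK at days 1 and 5. With 100 kb they became 1 for Oct4 at day 7, 11 for Sox2 in Oct4-SK at day 1 and 22 for Sox2 in Oct4defSox2-SK at day 5, and 95 sites were in 1 library. A score of at least 10 left 3 summits for Oct4 at day 1, 11 for Oct4defSox2 at day 1, 2 for Oct6 M151S, both in the Pou3f1 exon, 3 for Sox2 in Oct4-SK at day 5, and 1 and 9 for Sox2 in Oct4defSox2-SK at days 1 and 5, and Oct4 kept 0% of its sites to day 5. With a score of at least 4, Oct6 M151S had 4 summits. With 1 summit per peak, Sox2 in Oct6-SK had 1 and 2. With a sharing distance of 50 bp, 0% of sites were kept to day 5 by Oct4, by Oct4defSox2 and by Sox2 in Oct4-SK, and 0% were shared by Sox2 between Oct4-SK and Oct4defSox2-SK at day 5. With lists of equal size, Oct4 kept 0% to day 5, 33.3% of its day 1 sites were bound by Oct4 S151M, and Oct4defSox2 kept 50% (1 of 2). Whole-list shares of kept or shared sites were not computed under any alternative. Exact MORE matches were found at 0% of the Oct4 S151M summits (1.57% of its list), and with up to 2 mismatches, an alternative added after seeing the data, at 39.6% (40.7% of its list). Among the 1000 strongest summits of each library, 3 of the other libraries kept a Pou3f1 exon summit. Leaving out the Pou3f1 exon, also added later, gave 0% for Sox2 in Oct4-SK from day 1 to day 5. All 3 libraries of Oct6 cocktails had an exon summit under each alternative run for it. The causes were not tested, except that shorter lists and narrower windows hold fewer summits by construction. No paired analysis was possible because each group had 1 library and no replicate number. Read depth was unknown here, and the small counts limit all shares.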
